A study of Mus musculus with 12 samples.

Results

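The comparison described here sets mammary tissue that kept 1 Stat5a allele and no Stat5b allele against tissue that kept 1 allele of each gene, so the named change is the loss of the remaining Stat5b allele while Stat5a is kept. It comprised 6 of the 12 arrays of the study, which profiled 4 genotypes with 3 arrays each. The genotype Stat5abnull/Stat5b- carries 1 Stat5a allele and 0 Stat5b alleles and is called single-Stat5a below. Its comparator, Stat5ab+/null, carries 1 Stat5a allele and 1 Stat5b allele. Both groups share the null allele, which lacks Stat5a and Stat5b together, so neither is wild type, and no wild-type array was used. Single-Stat5a arrays were set against Stat5ab+/null arrays throughout, and a positive difference is a higher signal in single-Stat5a. The remaining genotypes, Stat5abnull/Stat5a- with 0 Stat5a alleles and 1 Stat5b allele (called single-Stat5b) and Stat5a-/- with 0 Stat5a alleles and 2 Stat5b alleles, are used only for contrast.

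All mice were on a background mixed from C57BL/6, FVB and 129, in shares that the labels do not give for each mouse, and mammary tissue was taken 6 days after a plug was seen. The labels conflict on the source: cell sorting, Mx1-Cre and PolyIC appear with the samples, and frozen mammary tissue in the series design. This conflict was not resolved, and the tissue's own markers are given below. The titles of the Stat5ab+/null arrays carry the letters AAB, which would count more Stat5a than Stat5b, whereas the genotype label gives 1 allele of each; the genotype label was used. The labels do not say whether the 3 arrays of a group came from 3 separate mice, although the design names 3 mice for each genotype, so the p-values measure the spread between these arrays.

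Members were genes with 2 or more probe sets, where each probe set is a group of short array probes read as 1 signal, names 1 gene and has a mean log2 signal over the 12 arrays of at least 6.04. There were 6843 such genes, out of 14203 genes with at least 1 probe set past that minimum and 18194 genes with any single-gene probe set. Before the minimum was applied, 9012 genes had 2 or more single-gene probe sets. Just inside the minimum lay Ncs1, whose second probe set averaged 6.0402, with differences of -0.48 and -0.45. Just outside lay Cntn2, whose second probe set averaged 6.0398, with differences of -0.07 and -0.38. A difference was called at an adjusted p under 0.05 in limma.

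Stat5a and Stat5b are closely related transcription factors that the receptors for prolactin, growth hormone and several cytokines activate through the kinase Jak2. Once phosphorylated they pair, enter the nucleus and bind DNA at short palindromes of the form TTCNNNGAA. In the mammary gland of pregnancy they are known for driving the growth and secretory differentiation of the alveolar epithelium, including the milk protein genes, and Stat5a is regarded as the more abundant of the pair in that epithelium.

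Promoter sequences of 4 genes described below are shown because they carry the letters that Stat5 dimers or interferon-activated factors are known to bind, and because each gene had every probe set called the same way. Each is RefSeq's 300 bases on build GRCm38.p6, from 250 bases before the start of the gene to 50 after it, written 5′ to 3′ on the gene's strand. Capitals mark TTCNNNGAA in Dbp and Cap1, and, in Rsad2 and Mndal, the core of the interferon-stimulated response element (ISRE), searched as GAAA, any 2 bases and GAAA, or its reverse complement. Both strands were searched. Of the genes named individually, 68 had a promoter that was searched, and 7 of these held either motif. Cybb and Psmd4, which both fell on every probe set, also held the ISRE core. Gm2a, which had opposite calls, held TTCNNNGAA. The sequences of Cybb, Psmd4 and Gm2a are not shown, so the genes shown are a selection.
Rsad2 (chr12:26456403-26456702, minus strand, an antiviral gene): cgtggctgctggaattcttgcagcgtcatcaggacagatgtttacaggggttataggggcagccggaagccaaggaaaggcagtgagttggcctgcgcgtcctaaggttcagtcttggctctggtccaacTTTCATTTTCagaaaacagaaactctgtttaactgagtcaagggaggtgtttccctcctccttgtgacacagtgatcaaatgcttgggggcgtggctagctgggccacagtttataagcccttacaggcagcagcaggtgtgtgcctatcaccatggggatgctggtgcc
Mndal (chr1:173880138-173880437, minus strand, an interferon-inducible gene of the Ifi200 family): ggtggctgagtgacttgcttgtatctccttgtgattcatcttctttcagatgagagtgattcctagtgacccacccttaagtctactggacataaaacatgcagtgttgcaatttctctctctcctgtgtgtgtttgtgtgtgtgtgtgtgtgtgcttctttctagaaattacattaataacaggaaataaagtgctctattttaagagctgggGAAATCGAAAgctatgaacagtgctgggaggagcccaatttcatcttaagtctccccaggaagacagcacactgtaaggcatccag
Dbp (chr7:45704997-45705296, plus strand, a clock-controlled transcription factor): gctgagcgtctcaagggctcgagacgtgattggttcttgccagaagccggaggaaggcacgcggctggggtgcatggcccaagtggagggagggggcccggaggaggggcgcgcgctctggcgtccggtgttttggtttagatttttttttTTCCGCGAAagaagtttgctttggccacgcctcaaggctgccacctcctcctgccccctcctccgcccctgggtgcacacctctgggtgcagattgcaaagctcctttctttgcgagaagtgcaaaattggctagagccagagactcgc
Cap1 (chr4:122886027-122886326, minus strand, a regulator of actin turnover): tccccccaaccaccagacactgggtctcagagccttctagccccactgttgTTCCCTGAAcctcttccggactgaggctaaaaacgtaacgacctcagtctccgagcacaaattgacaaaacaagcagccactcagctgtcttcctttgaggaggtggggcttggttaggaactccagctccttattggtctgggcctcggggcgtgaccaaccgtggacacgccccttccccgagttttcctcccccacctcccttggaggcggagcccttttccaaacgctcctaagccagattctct
The capitals begin 120 bases before the gene start in Rsad2, 36 in Mndal, 99 in Dbp and 199 in Cap1. TTCNNNGAA was present in 9.55% of the 27025 genes with a promoter in the RefSeq table, in 7.87% of the 5501 member genes that matched, in 9.17% of the genes with every probe set higher and in 7.49% of those with every probe set lower. The ISRE core was present in 3.99%, 3.56%, 2.68% and 5.15% of the same groups, in that order. The TTCNNNGAA shares lay close together. For the ISRE core the called groups held 12 of 447 genes (higher) and 22 of 427 (lower), a gap that was not tested. A match shows only that the letters are there.

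The arrays themselves fell apart by set. Pearson correlations over probe sets were 0.977 to 0.9875 within single-Stat5a, 0.9854 to 0.9888 within Stat5ab+/null and 0.8519 to 0.8741 between them, against 0.9486 to 0.9777 between single-Stat5a and single-Stat5b and 0.9804 to 0.994 between Stat5ab+/null and Stat5a-/-. Array titles of Stat5ab+/null and Stat5a-/- share a form with letters and those of the single-allele genotypes a form with numbers, so the comparison crosses 2 array sets. The actin and Gapdh control probes at the 3′ end exceeded those at the 5′ end by 0.07 to 0.14 log2 units in Stat5ab+/null and by 1.74 to 2.93 in single-Stat5a, a sign of more degraded or shorter labelled RNA. The hybridization controls averaged 11.9 to 12.0 in Stat5ab+/null and 12.8 to 12.9 in single-Stat5a. Array set and genotype cannot be told apart in this comparison. Luminal and fat markers were high in both groups: Krt8 read 12.8 to 12.9 in single-Stat5a and 13.6 to 13.7 in Stat5ab+/null, Epcam 11.9 to 12.8 and 13.3 to 13.5, and Adipoq 13.9 to 14.2 and 14.5 to 14.6. The late milk gene Wap lay near the minimum in both, at 5.82 to 6.36 and 6.49 to 6.55. In whole tissue, fewer cells of a type and less RNA per cell cannot be told apart.

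Stat5b, the gene lost, was lower on both of its probe sets, and Stat5a, the gene kept, was higher on one and lower on the other. On 1422102_a_at, Stat5b read 6.19, 6.26 and 5.99 in single-Stat5a and 8.49, 8.37 and 8.72 in Stat5ab+/null. The difference was -2.38 (SE 0.17, n = 3 per group, limma adjusted p = 1.23e-07), and the groups did not overlap. On 1422103_a_at, Stat5b read 9.33, 9.72 and 9.26 against 9.98, 9.85 and 9.87, a difference of -0.47 (SE 0.18, adjusted p = 0.0413). That call was lost when any of 8 of the 12 arrays was left out in turn, with adjusted p up to 0.135. Stat5b therefore remained well above the minimum on 1422103_a_at in tissue labelled as lacking it, and the files do not give the position of either probe set relative to the deleted part of the gene.

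On 1421469_a_at, Stat5a read 12.48, 12.33 and 11.83 in single-Stat5a and 9.89, 9.77 and 10.08 in Stat5ab+/null, a difference of 2.30 (SE 0.19, adjusted p = 5.39e-07). On 1450259_a_at it read 5.65, 5.30 and 4.94 against 8.63, 7.91 and 8.58, a difference of -3.08 (SE 0.25, adjusted p = 3.48e-07). Both genotypes carry 1 Stat5a allele, and the 2 probe sets gave opposite answers without overlap between groups. An exact permutation test of 3 arrays against 3 gave p = 0.1 for each of the 4 probe sets, the smallest it allows. In the other comparison across the sets, single-Stat5b minus Stat5a-/-, where neither genotype carries Stat5a, the Stat5a probe sets differed by 0.68 and -3.88. The Stat5b probe sets differed there by 0.04 on 1422103_a_at and -1.49 on 1422102_a_at.

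**Figure D1:**
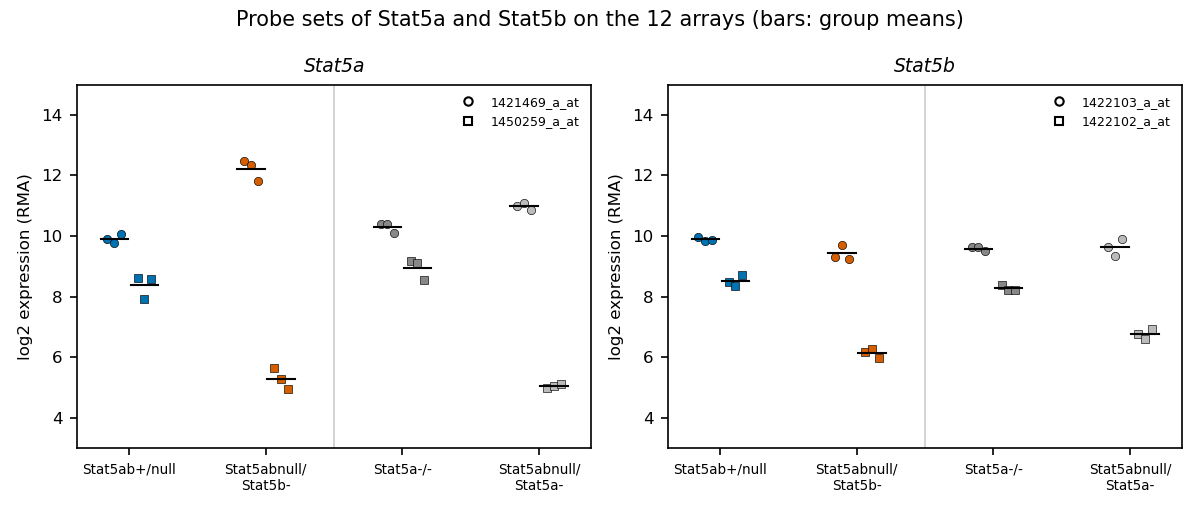
Log2 signal (vertical axis) of the Stat5a and Stat5b probe sets on each of the 12 arrays, by genotype, with bars at group means. The Stat5a probe sets moved in opposite directions between Stat5ab+/null and Stat5abnull/Stat5b-, by 2.30 and -3.08, while the Stat5b probe sets differed by -0.47 and -2.38.

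Across genes, calls were very common and often contradictory within a gene. With the brightest probe set of each gene, 8377 of 14203 genes were called (59.0%), 4507 higher (31.7%) and 3870 lower (27.2%). Of the 6843 members, 4170 were called in this way (60.9%), 2576 higher (37.6%) and 1594 lower (23.3%). The probe sets of 2781 members all had 1 sign (40.6%), 1468 higher (21.5%) and 1313 lower (19.2%). Every probe set was called with 1 sign in 1075 members (15.7%), 556 of which rose (8.13%) and 519 fell (7.58%). Probe sets called in opposite directions were present in 2073 members (30.3%), more than the 1075 with every probe set called the same way. Of the 26213 probe sets past the minimum, 16469 were called (62.8%) and 19307 had no overlap between the groups (73.7%), and 3288 members had no overlap on any of their probe sets (48.0%), so groups without overlap were common here. Of the 1075 genes, 778 had both group means at or above 6.04 on every probe set, and 509 differed by 2-fold or more on every probe set. On 55 of the 217 probe sets of the genes named here, the mean of 1 group lay under 6.04, single-Stat5a on 28 and Stat5ab+/null on 27, so the size of the difference there depends on a near-background signal.

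Agreement fell with the number of probe sets, a fall that signs set at random would also give. All had 1 sign in 53.4% of the 3803 genes with 2 probe sets, in 31.6% of the 1759 genes with 3, in 18.1% of the 750 genes with 4 and in 11.1% of the 531 genes with 5 or more. Opposite calls occurred in 17.9%, 35.8%, 53.2% and 68.5% of these genes, in that order. Over all members, the probe sets had 1 sign in 40.6% here. The share was 49.1% for Stat5ab+/null minus Stat5a-/- and 48.1% for single-Stat5a minus single-Stat5b. The median range between the probe sets of a gene was 1.71 log2 units in this comparison, against 0.22 for Stat5ab+/null minus Stat5a-/- and 0.32 for single-Stat5a minus single-Stat5b, each of which stays within an array set.

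**Figure D2:**
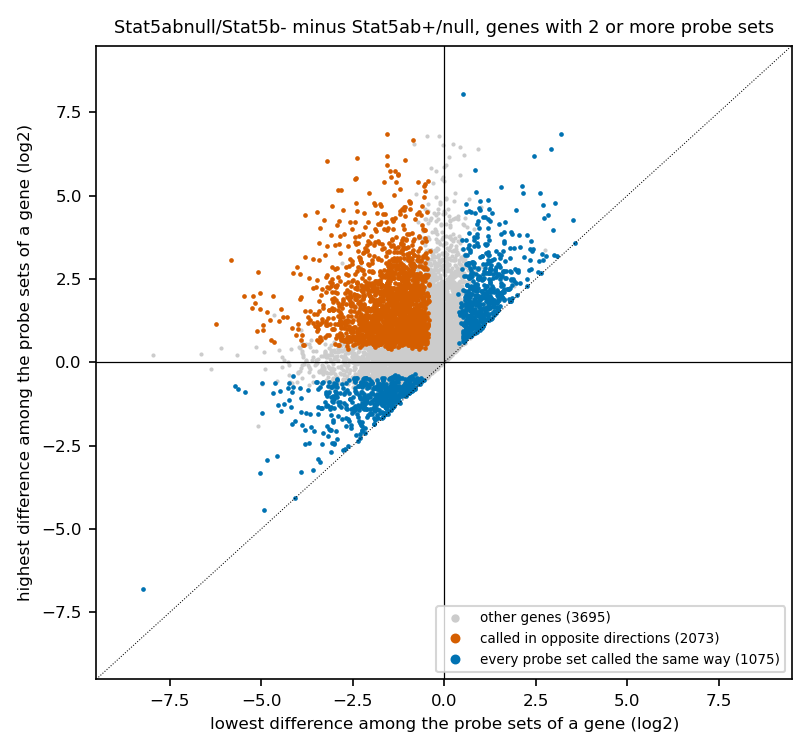
For each of the 6843 genes, the lowest (horizontal axis) and highest (vertical axis) log2 difference among its probe sets, single-Stat5a minus Stat5ab+/null. Genes in the upper left part, with a lowest value below 0 and a highest above 0, include the 2073 with calls in opposite directions, and the 556 and 519 genes called the same way on every probe set lie in the upper right and lower left.

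The 4 genes named for the widest spread among probe sets with opposite calls show its size. Rab2a, a small GTPase of vesicle traffic, had 6 probe sets: 2 were higher by 6.69 and 6.84, the next by 2.91, and one differed by -1.56. On 1419946_s_at it read 13.18, 13.17 and 13.34 in single-Stat5a and 6.59, 6.43 and 6.60 in Stat5ab+/null, while on 1418622_at it read 12.58, 12.71 and 12.85 against 12.88, 12.72 and 12.86 (difference -0.11, adjusted p = 0.618). Replicates were tight on each probe set, and only the probe set decided the answer. Aldh2, which oxidises acetaldehyde in mitochondria, differed by 6.03 on 1434988_x_at, 5.87 on 1434987_at and -3.21 on 1437410_at. Gm2a, the activator protein of ganglioside breakdown in lysosomes, differed by -5.81 on 1416188_at, 3.08 on 1442203_at and 0.82 on 1448241_at. Spsb1, an adaptor of a ubiquitin ligase, differed by 6.12 on 1449752_at and -2.38 on 1421474_a_at.

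The other comparison across the sets, which shares no array with this one, gave nearly the same picture. Single-Stat5b minus Stat5a-/- had every probe set called with 1 sign in 1072 of 6843 genes (15.7%), 574 higher (8.39%) and 498 lower (7.28%). Of the 556 genes that rose here, 433 also rose there, 77.9% of the one list and 75.4% of the other. Of the 519 that fell, 380 also fell there, 73.2% and 76.3%. No gene called on every probe set in both had opposite directions. Over the 6843 genes the differences of the 2 comparisons had a Pearson correlation of 0.94 and a Spearman correlation of 0.94, given as a description, since genes are not independent replicates and both comparisons cross the same array sets. Within an array set, Stat5ab+/null minus Stat5a-/- had 1 of 14203 genes called (0.00704%), and single-Stat5a minus single-Stat5b had 310 (2.18%). Among the 6843 members, single-Stat5a minus single-Stat5b had 120 called on the brightest probe set (1.75%) and 24 called with 1 sign on every probe set (0.351%).

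Genes that differed between the comparisons were therefore tested as a difference of differences, in which a shift common to both genotypes of an array set cancels; one that depends on the genotype or the signal level does not. It was called for 110 of 14203 genes (0.774%), 56 higher (0.394%) and 54 lower (0.38%) in the comparison described here, and for 36 of the 6843 members (0.526%). It was called on every probe set of 7 members (0.102%). The difference of differences was positive for Phkg1, Gm14057 and Rps6 (0.0438%) and negative for H2-Ea, Cxcl15, Ifi44l and Defb1 (0.0585%). Among the 1075 genes with every probe set called, the median absolute difference was 1.29 here and 1.25 in the other comparison, and the difference of differences was under 1 in 1022 of them (95.1%). It was called in 13 of them on the brightest probe set: Ang, Apobec2, Cap1, D2hgdh, Gm14057, H2-Ea, Ifi44l, Phkg1, Pianp, Pik3ap1, Rps6, Slc12a2 and Trim34a. Apobec2, D2hgdh, Pik3ap1 and Trim34a fall outside the rule for named genes and are listed after their values were seen.

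**Figure D3:**
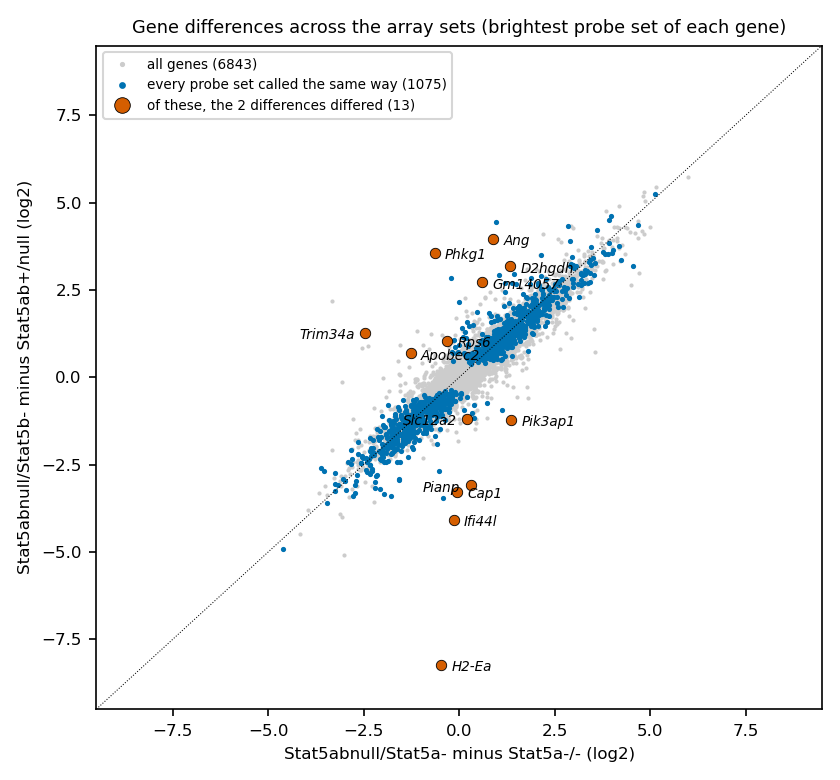
Log2 difference of each of the 6843 genes on its brightest probe set in single-Stat5b minus Stat5a-/- (horizontal axis) and in single-Stat5a minus Stat5ab+/null (vertical axis). Most of the 1075 genes called on every probe set lie near the diagonal, and the 13 genes for which the 2 differences themselves differed lie away from it, with H2-Ea lowest.

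H2-Ea, on chromosome 17, encodes the alpha chain of an MHC class II molecule that presents peptides to T cells, and it showed the largest fall. On 1422892_s_at it read 5.90, 4.47 and 5.34 in single-Stat5a and 13.28, 13.89 and 13.22 in Stat5ab+/null, a difference of -8.23 (SE 0.32, 300-fold lower, adjusted p = 1.16e-09). On 1422891_at it read 6.11, 5.02 and 5.15 against 11.91, 12.85 and 11.92, a difference of -6.80 (SE 0.33, adjusted p = 5.38e-09). The single-Stat5a mean lay under the minimum of 6.04 on both, so the fold is that of a near-background signal. All 9 arrays of the other 3 genotypes were high. Single-Stat5b read 12.88, 12.83 and 13.35 on 1422892_s_at and Stat5a-/- 13.24, 13.40 and 13.82, and the difference of differences was -7.76 (adjusted p = 9.29e-07) and -5.97 (adjusted p = 1.55e-05). Other class II genes and their regulator Ciita were looked at after these values were seen. Cd74, the invariant chain, and H2-Eb1, the partner chain of H2-Ea, stayed high in single-Stat5a. They differed by -0.53 (adjusted p = 0.152) and -0.44 (adjusted p = 0.169). H2-Aa and H2-Ab1 also stayed high, with differences of -0.85, 0.58 and -1.71 and of -1.70, 0.19 and -0.54. H2-DMa differed by -0.76 and 1.84, and Ciita by -1.67 (adjusted p = 0.00391), 0.92 and 0.63. The difference of differences was called on no probe set of Cd74, H2-Eb1, H2-Aa, H2-Ab1, H2-DMa or Ciita. The labels do not give the share of each strain in each mouse, and the part of strain background in the H2-Ea fall was not tested.

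Ifi44l, on chromosome 3, is an interferon-inducible gene. On 1425917_at it read 4.82, 4.66 and 3.87 in single-Stat5a and 8.09, 9.10 and 8.41 in Stat5ab+/null, a difference of -4.08 (SE 0.29, adjusted p = 1.15e-07). On 1421596_s_at the difference was -4.06 (SE 0.25, adjusted p = 3.78e-08). The other comparison gave -0.15 and -1.35, and the difference of differences was -3.93 (adjusted p = 0.000163) and -2.71 (adjusted p = 0.00127). The single-Stat5a mean lay under the minimum of 6.04 on both probe sets, so these differences too are against a near-background signal. On the interferon list described below, no member had every probe set called lower as deposited, and 1 had after median centring.

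Phkg1, on chromosome 5, encodes the catalytic subunit of muscle phosphorylase kinase, which starts glycogen breakdown. On 1425164_a_at it read 9.59, 11.57 and 9.88 in single-Stat5a and 6.95, 6.47 and 6.89 in Stat5ab+/null, a difference of 3.58 (SE 0.39, 11.9-fold, adjusted p = 4.73e-06), and on 1422315_x_at the difference was 3.57 (SE 0.44). In the other comparison it differed by -2.10 and -0.64, and the difference of differences was 5.68 (adjusted p = 0.00011) and 4.21 (adjusted p = 0.00375). The level of skeletal muscle genes moved with these arrays: the mean of 34 muscle genes was 9.42, 12.1 and 8.64 in single-Stat5a and 6.84, 8.01 and 6.79 in Stat5ab+/null. Single-Stat5b replicate 3, with a muscle mean of 9.57, read 5.24 and 4.55 for Phkg1. The part of muscle tissue in the Phkg1 rise was not tested. Pygm, Phka1 and Phkg2 were looked at after these values were seen. Pygm, the muscle phosphorylase that this kinase acts on, differed by 2.91 (adjusted p = 0.011), with a difference of differences of 2.72 (adjusted p = 0.694). Phka1, another subunit of the kinase, differed by 0.20, 0.69 and 0.61, none of them called. Phkg2, a related catalytic subunit, differed by -1.22 (adjusted p = 0.000813).

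Ang, on chromosome 14, encodes angiogenin, a secreted ribonuclease. On 1438936_s_at it read 11.08, 11.09 and 10.92 in single-Stat5a and 7.10, 6.90 and 7.17 in Stat5ab+/null, a difference of 3.97 (SE 0.20, 15.7-fold, adjusted p = 6.2e-09). Its other probe sets differed by 2.96 and 3.76. In the other comparison the 3 probe sets differed by 0.89, 0.80 and 0.69, and the difference of differences was 3.09 (adjusted p = 6.13e-05), 2.16 (adjusted p = 0.0646) and 3.07 (adjusted p = 0.000581). Its neighbour Rnase4, another secreted ribonuclease, looked at after these values were seen, differed by -0.96 with a difference of differences of -0.26 (adjusted p = 0.986).

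Cap1, whose promoter is shown above, read 9.19, 8.56 and 8.59 on 1417461_at against 12.14, 12.27 and 11.80, a difference of -3.29 (SE 0.27, adjusted p = 4.74e-07). The difference of differences was -3.23 (adjusted p = 0.000655) there and -1.62 (adjusted p = 0.669) on 1417462_at. Pianp, a membrane protein that binds the receptor PILRα, fell by 3.09 and 2.68, with a difference of differences of -3.39 (adjusted p = 9.56e-05) and -1.11 (adjusted p = 0.481). For Cap1 and Pianp the probe sets thus agreed on the fall, and only the brighter one also differed from the other comparison. Gm14057, a predicted gene on chromosome 2, rose by 2.71 and 2.57, with a difference of differences of 2.12 (adjusted p = 0.000397) and 2.31 (adjusted p = 0.000163). Rps6, a protein of the small ribosomal subunit, read 11.76, 11.53 and 11.50 against 10.45, 10.69 and 10.53 on 1416142_at, a rise of 1.04 (SE 0.18, adjusted p = 0.000194), with a difference of differences of 1.35 (adjusted p = 0.0185) and, on 1453466_at, of 1.93 (adjusted p = 0.00413).

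Cxcl15 and Defb1, a chemokine and an antimicrobial peptide of epithelia, differed between the comparisons without every probe set being called here. On their brightest probe sets the larger change lay in the other comparison, single-Stat5b minus Stat5a-/-. Cxcl15 rose there by 3.54 (limma gene fit, adjusted p = 1.04e-06) and Defb1 by 1.78 (adjusted p = 0.000172). Cxcl15 differed by 0.72 on 1456428_at (adjusted p = 0.0585) and -3.24 on 1421404_at (adjusted p = 1.57e-06), and its difference of differences was -2.82 (adjusted p = 0.00551) and -2.80 (adjusted p = 0.00616). Defb1 differed by -0.29 (adjusted p = 0.407) and -0.88 (adjusted p = 0.0175), with a difference of differences of -2.07 (adjusted p = 0.0302) and -1.98 (adjusted p = 0.0411). The Rps6 call on 1416142_at was lost without Stat5a-/- replicate 2 or 3, Stat5ab+/null replicate 1 or 3 or single-Stat5a replicate 1, at adjusted p from 0.0641 to 0.0793. For Defb1, leaving out any array other than Stat5a-/- replicate 1 and single-Stat5a replicate 3 cost the call on at least 1 probe set.

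**Figure D4:**
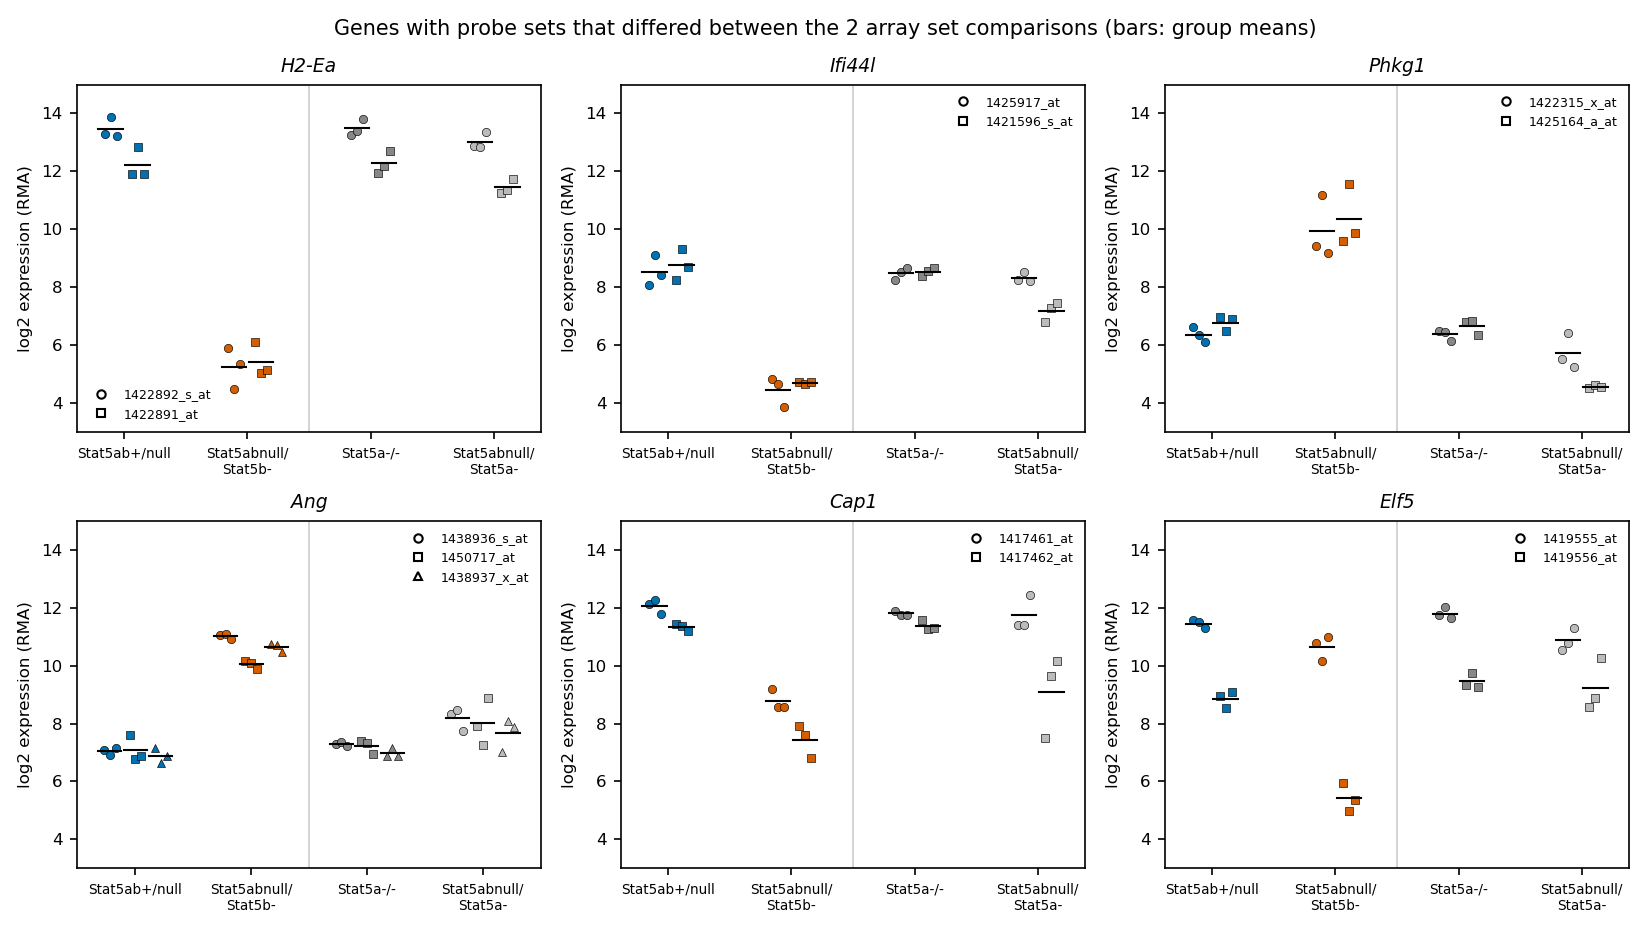
Log2 signal (vertical axis) of 6 genes on each of the 12 arrays, grouped by genotype, with one symbol for each probe set and bars at group means. For H2-Ea and Ifi44l the Stat5abnull/Stat5b- arrays lie below the arrays of the other 3 genotypes, and for Phkg1 and Ang above them on each probe set shown.

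The other large rises were as large in the comparison of single-Stat5b with Stat5a-/-, or did not differ from it by the test. Shisa2, which retains Fgf and Wnt receptors in the endoplasmic reticulum, read 11.28, 11.57 and 11.95 on 1423852_at against 8.20, 7.62 and 8.38, a rise of 3.53 (SE 0.23, 11.6-fold, adjusted p = 6.45e-08), and rose by 4.28 on its second probe set. The other comparison gave 3.88 and 4.83. Adamts4, a protease of the matrix proteoglycan aggrecan, rose by 3.20 and 2.77. Tmeff1, a transmembrane protein with follistatin modules, rose by 2.69 and 4.72, and Cpped1, a phosphatase, by 3.20 and 3.00. Mndal, whose promoter is shown above, rose by 2.93 and 6.40, and the other comparison gave 3.52 and 6.55. Gprin3, E430024I08Rik and Btbd11 also rose on every probe set, by 2.69 to 6.85. In this group the difference of differences was called on 1 probe set, 1452595_at of Adamts4, at -1.34 (adjusted p = 0.0489).

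Among the large falls, Cebpb, a transcription factor of adipocyte and mammary epithelial differentiation, read 6.52, 6.46 and 6.25 on 1427844_a_at against 11.21, 11.33 and 11.79. This was a difference of -5.03 (SE 0.18, 32.7-fold, adjusted p = 6.93e-10), and on 1418901_at it fell by 3.32. The other comparison gave -4.30 and -2.73. Dbp fell by 4.83 and 2.92 here, and by 4.82 and 3.06 there. Cd99, an adhesion molecule of leukocytes and endothelium, fell by 4.92, 4.43 and 4.50 on its 3 probe sets, and Plau, the urokinase that activates plasminogen, fell on both, with differences of -3.59 and -3.22. Zfp771, a zinc finger protein, fell, with differences of -2.81 and -4.57. Serpina1b, an antitrypsin gene with near-identical copies that share probes, fell by 3.44 and 2.89, and differed by -0.42 and -0.39 in the other comparison; the difference of differences was -3.03 (adjusted p = 0.236) and -2.50 (adjusted p = 0.284).

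The prolactin and growth hormone pathway showed more falls than rises among members with agreeing probe sets, and many contradictions. Of 40 members, 1 rose on every probe set (2.5%) and 6 fell (15%), against 8.13% and 7.58% of all members. Opposite calls occurred in 18 of the 40, against 2073 of all 6843 members (30.3%). That share depends on the number of probe sets, at 17.9% with 2 and 68.5% with 5 or more, which was not accounted for. The median difference was -0.08, against 0.21 over all members. Receptors and kinases could not be read in 1 direction: Ghr, the growth hormone receptor, differed by 0.50, -0.09 and -0.91, Jak2 by 1.00 and -2.05, and Jak1, a kinase of cytokine receptors, by -1.18, -2.29 and 1.71. Prlr, the prolactin receptor, had fewer than 2 usable probe sets. The related factor Stat3 differed by -2.34, -2.54 and 0.91.

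Inhibitors and adaptors of the pathway were mixed as well. Pias2, an inhibitor of activated STAT proteins, rose by 0.58, 0.72 and 2.01, and its relative Pias3 fell by 0.52 and 2.23; both were named after their values were seen. Socs3, a feedback inhibitor induced by STAT signalling, differed by 2.15, 1.90 and -1.73. The phosphatases Ptpn1 and Ptpn6, which dephosphorylate cytokine receptors and kinases, both fell. Ptpn1 fell by 1.08 (adjusted p = 0.000928) and 0.98 (adjusted p = 0.00326). Ptpn6, found mainly in blood cells, read 8.29, 7.97 and 7.98 on 1460188_at against 10.06, 11.95 and 10.11, a difference of -2.62 (SE 0.59, adjusted p = 0.00179). The 11.95 is that of Stat5ab+/null replicate 2, whose B cell genes averaged 11.0, against 7.70 and 8.91 in the other Stat5ab+/null arrays. With each array's 3′ minus 5′ control difference in the limma model, the call on 1460188_at was lost (-2.49, adjusted p = 0.0675). Src, a kinase that can phosphorylate Stat5, fell by 2.05 and 3.56, and the difference of differences of its 1423240_at was called, at -1.61 (adjusted p = 0.00631).

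Among 20 genes known as Stat5 or cytokine targets, 0 rose on every probe set and 4 fell (20%), against 8.13% and 7.58% of all members. Opposite calls occurred in 6 of the 20, against 30.3% of all members. The median difference was 0.04, against 0.21 over all members. On the brightest probe set, 10 of the 20 lay above 0, against 3988 of the 6843 members. Akt1, a survival kinase, fell by 0.92, 4.67, 1.42 and 1.15. Bcl2l1, which encodes the survival protein Bcl-xL, fell, with differences of -1.40, -3.13 and -2.66, as did Wnt4, a paracrine signal of ductal branching, with -3.35 and -1.37. None of their probe sets had a called difference of differences. Socs2, Bcl6 and Ccnd1 each had probe sets that disagreed, for example 2.94 and -0.45 for Bcl6. When the 3′ minus 5′ control difference of each array was added to the model, 3 of the 4 genes that fell lost a call: Akt1 on 1416657_at (adjusted p = 0.11), Bcl2l1 on 1426191_a_at (difference -1.30, adjusted p = 0.114) and Elf5, described next, on 1419555_at (adjusted p = 0.236). That control difference did not overlap between the groups, so this fit cannot separate it from genotype. TTCNNNGAA was present in the promoters of 2 of the 17 targets that matched, Socs3 and Bcl6.

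Elf5, the transcription factor of alveolar progenitors, fell on both probe sets, and its probe sets disagreed on whether the other comparison differed. On 1419556_at it read 5.93, 4.98 and 5.37 in single-Stat5a and 8.97, 8.54 and 9.08 in Stat5ab+/null, a difference of -3.44 (SE 0.37, adjusted p = 4.61e-06). Single-Stat5b read 8.59, 8.90 and 10.26 on it, and the difference of differences was -3.22 (adjusted p = 0.00812). All 3 single-Stat5a values on this probe set lay under the minimum of 6.04, so both values rest on a near-background signal. On the brighter 1419555_at, Elf5 read 10.78, 10.16 and 10.99 against 11.57, 11.52 and 11.29, a difference of -0.81 (SE 0.25, adjusted p = 0.0109), with a difference of differences of 0.11 (adjusted p = 0.999). Without single-Stat5a replicate 2 the value on 1419555_at was -0.57 (adjusted p = 0.0564).

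Of milk protein genes, 4 had 2 or more probe sets, and 1 rose on each. Csn3, which encodes kappa-casein, read 13.31, 12.09 and 12.66 on 1419735_at against 11.47, 10.90 and 11.41, a rise of 1.42 (SE 0.28, adjusted p = 0.000655), and rose by 1.48 on 1451851_a_at (adjusted p = 0.0111). The difference of differences was 1.34 (adjusted p = 0.236) and 0.39 (adjusted p = 0.998). Csn2, which encodes beta-casein, differed by 4.34 (adjusted p = 1.8e-05) and 0.56 (adjusted p = 0.453). Among 14 genes of secretory differentiation, 1 rose and 4 fell (28.6%), against 8.13% and 7.58% of all members. Slc2a1, the glucose transporter of the alveolar cell, rose by 2.79, 3.07 and 2.34, and Kit, a receptor of luminal progenitors, fell by 1.74 and 1.89. Slc5a5, the iodide transporter, fell by 0.94 and 1.36. Slc12a2, a chloride cotransporter, fell, with differences of -1.19, -3.24 and -1.35, and its brightest probe set had a called difference of differences of -1.39 (adjusted p = 0.0413). Among 33 genes of lipid synthesis, 3 rose and 3 fell: Cyp51, Lss and Idi1 of the cholesterol pathway rose, Cyp51 by 1.86, 1.10 and 2.75, and Dgat2, the last enzyme of triglyceride synthesis, fell by 1.03 and 2.49. The other falls, named after their values were seen, were those of Srebf2, a regulator of the cholesterol pathway, and Agpat1, an enzyme of phospholipid and triglyceride synthesis. Idi1 rose by 3.88 on one probe set and by 0.67 (adjusted p = 0.0476) on 1451122_at, where the call was lost under both other scalings (adjusted p = 0.0943 and 0.117), leaving 2 rises, and without Stat5ab+/null replicate 1 (0.36, adjusted p = 0.242).

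Cell type markers did not move together. Over all members, 8.13% rose and 7.58% fell on every probe set. Of 11 hormone-sensing luminal genes, 1 fell (Wnt4) and 0 rose. Of 14 luminal genes, 1 rose and 2 fell: the membrane protein gene Tspan8 rose on all 5 probe sets, by 2.45 or more, while Cldn3, a tight junction protein, fell on all 4, with differences reaching -3.14, and Spint2, a protease inhibitor, fell by 2.17 and 1.38. Of 15 basal and myoepithelial genes, 0 rose and 2 fell, the keratin Krt14 by 0.90, 1.16 and 1.02 and the smooth muscle actin Acta2 by 0.46 and 1.42. Of 34 cell cycle genes, 4 rose (11.8%) and 1 fell: the mitotic genes Prc1, Bub1 and Nek2 and the replication factor Rfc4 rose, Prc1 by 1.90 and 3.42. The fall was that of E2f1, a cell cycle transcription factor named after its values were seen, by 0.48 and 1.44. Of 11 endothelial genes, 1 rose, the lymphatic receptor gene Flt4, and 2 fell, Egfl7 and Cdh5. Of 27 fibroblast and matrix genes 1 rose and 1 fell, and of 8 nerve genes 1 rose, the Schwann cell transcription factor gene Egr2. Fn1, which encodes fibronectin, fell by 0.93 and 2.40, and Pdgfrb, a receptor of fibroblasts and pericytes, rose by 1.86 and 0.96. Of 3 skin genes, Sbsn rose, by 0.86, 0.98 and 1.94; under each of 2 other scalings of the arrays it was no longer called on every probe set. The Krt14 call on 1455573_at was lost after quantile normalization (adjusted p = 0.0528), leaving 1 basal gene, and its difference was -0.42 (adjusted p = 0.235) without single-Stat5a replicate 2. On the probe sets of the genes named in this paragraph, no difference of differences was called.

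Skeletal muscle was the list with the highest share of rises, where 8.13% of all members rose and 7.58% fell. Of 8 muscle genes with 2 or more probe sets, 4 rose on every probe set (50%) and 0 fell: Trdn, Ttn, Ryr1 and Ldb3, all of the contractile or calcium release apparatus, and 3 did so under each of 2 other scalings. Ryr1, the calcium release channel, read 11.44, 13.79 and 10.88 on 1427306_at against 7.58, 7.95 and 7.62, a rise of 4.32 (SE 0.62, adjusted p = 4.88e-05). Trdn, which anchors the calcium store, read 8.48, 12.24 and 7.19 on 1426142_a_at against 4.17, 5.22 and 4.16, a rise of 4.79 (SE 1.10, adjusted p = 0.00205) over a Stat5ab+/null signal under the minimum of 6.04. Replicate 2 of single-Stat5a was the highest array for each. Without it, Trdn on 1426143_at was 1.65 higher (adjusted p = 0.0592) and the titin gene Ttn on 1427446_s_at 1.35 higher (adjusted p = 0.238), so that neither was called. The difference of differences was called for none of the 4. The part of muscle tissue in these samples in the result was not tested.

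Of 6 B cell genes, 0 rose and 2 fell, Cd22 and Cd37, both surface proteins of B cells. Cd22 read 6.54, 6.53 and 7.13 on 1419768_at against 8.55, 12.20 and 9.63, a difference of -3.39 (SE 1.02, adjusted p = 0.011). Stat5ab+/null replicate 2 stood apart: the mean of 23 B cell genes was 11.0 in it, 7.70 and 8.91 in the other Stat5ab+/null arrays, and 7.43, 7.32 and 8.04 in single-Stat5a. Without it, Cd22 differed by -2.36 (adjusted p = 0.0567) and -2.09 (adjusted p = 0.0838). Cd37 fell by 2.43 and 3.02. Of 8 macrophage genes, 1 fell, the oxidase subunit Cybb, by 1.81, 1.86 and 2.30, and of 3 T cell genes none was called on every probe set. Of 14 white adipocyte genes, 0 rose and 2 fell, Cebpb and Dgat2, and of 7 brown adipocyte genes 1 rose, Letmd1. Under each other scaling Letmd1 was no longer called on 1441021_at (adjusted p = 0.0768 and 0.0807), which left 0 rises on that list.

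Of 16 interferon response genes, 1 rose on every probe set (6.25%) and 0 fell. Rsad2, whose promoter is shown above, read 12.01, 11.41 and 12.34 on 1436058_at against 9.80, 9.48 and 9.16, a rise of 2.44 (SE 0.38, adjusted p = 9.54e-05), and rose by 3.41 on 1421009_at. The other comparison gave 1.19 and 1.81, and the difference of differences was 1.25 (adjusted p = 0.627) and 1.60 (adjusted p = 0.388). The ISRE core was present in the promoters of 6 of the 13 listed genes that matched. Of 13 clock genes, 1 rose and 2 fell: the activator Clock rose by 0.62 to 2.31, a call on every probe set that was not kept under either other scaling, while Dbp fell as given above and the repressor Nr1d2 by 0.59 and 2.21. Of 13 immediate early genes, Egr2 rose by 1.47 and 2.95, and Btg2, which restrains proliferation, fell by 1.08 and 3.91.

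In the housekeeping lists, shares of genes that rose on every probe set were below the 8.13% of all members. Shares that fell lay on both sides of the 7.58% of all members. Of 20 ribosomal protein genes, Rps6 rose and Rps14 fell, by 1.28 and 1.66. Of 31 oxidative phosphorylation genes, 0 rose and 3 fell (9.68%), Cox8a, Ndufv2 and Cox6a1, the first by 2.12, 2.92 and 1.05. Of 16 proteasome genes, 1 fell, Psmd4, by 1.75, 2.60 and 2.59. Of 41 splicing factor genes, 1 fell (2.44%), Snrnp70, and 25 had opposite calls, against 30.3% of all members. Of 26 genes of the unfolded protein and heat shock response, 3 fell (11.5%): Hspb1, Herpud1 and Pdia6, the last by 2.35 and 0.71. Of 17 growth factor genes, 2 fell, Tgfa, a ligand of the EGF receptor, by 0.93, 1.51 and 1.08, and Igfbp4, a binding protein of insulin-like growth factors, with differences of -3.14 to -0.60 on 6 probe sets.

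**Figure D5:**
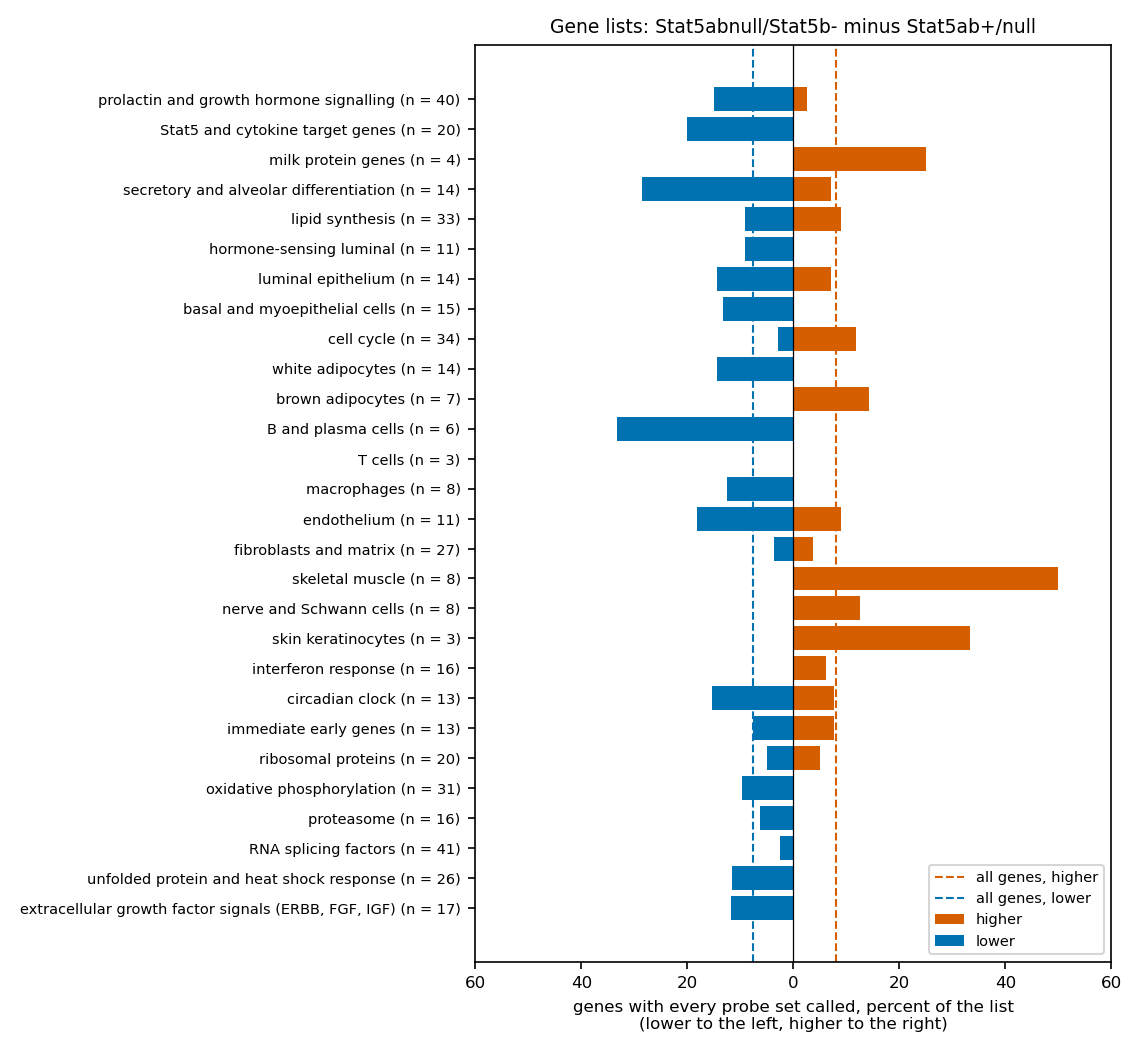
Share of each gene list (horizontal axis, percent of members with 2 or more probe sets) with every probe set called lower (left) or higher (right) in single-Stat5a than in Stat5ab+/null. Dashed lines mark the shares over all 6843 genes, 8.13% higher and 7.58% lower, and skeletal muscle reaches 50% higher with 8 genes.

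The balance of rises and falls depended on scaling. As deposited, 51.7% of the 1075 genes rose; after quantile normalization 43.2% of 1076 did, and after centring each array on its median 39.8% of 1117. The centring moved the median gene difference by -0.13, from 0.21 to 0.08. Called in the same direction as deposited and under both scalings were 942 genes, 434 of them higher and 508 lower, and all 24 of the rises and falls named for their size. Of the 78 genes named here with every probe set called, 7 lost a call after quantile normalization (Clock, Cox6a1, Idi1, Krt14, Letmd1, Sbsn and Ttn), and 5 after centring, the same genes without Cox6a1 and Krt14. With each array's 3′ minus 5′ control difference in the model, 28 of the 78 lost a call. That control difference did not overlap between the groups, so this fit cannot separate it from genotype. Among the lost calls some differences grew, as for Cd22 on 1419768_at (-3.39 without and -3.76 with the covariate). Others shrank, as for Elf5 on 1419555_at (-0.81 and -0.62). The reason for the lost calls was not tested. With 1 array left out in turn, 19 lost a call at least once: Acta2, Cd22, Cdh5, Clock, Cox6a1, Csn3, Cyp51, Elf5, Flt4, Idi1, Krt14, Letmd1, Nr1d2, Sbsn, Slc5a5, Stat5b, Tgfa, Trdn and Ttn. Genes called on every probe set were 11.2% of members on chromosome 19 and 20.5% on chromosome 15, the lowest and highest shares by chromosome. The genes that fell had a median span of 20.8 kb in RefSeq, those that rose 31.9 kb and all members 30.4 kb.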

How the data were processed

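RNA labelled as mammary, 12 samples with 3 for each of 4 genotypes, was profiled on Affymetrix arrays with 45101 probe sets. The values are log2 expression, deposited by the authors as a table of the whole series, and RMA and Partek are named, per the submitters' processing notes, without versions. RMA corrects background, equalises the arrays' distributions and summarises the probes of a probe set. The deposited arrays nevertheless differed in their medians, at 7.32 to 7.35 in Stat5ab+/null and 7.38 to 7.47 in single-Stat5a. The scanner files were not used here, and the number of arrays limits the precision.

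Genes were taken from the platform annotation: 34958 probe sets named 1 gene, 932 several and 9147 none, apart from 64 control probe sets, and only the first kind was used. The minimum of 6.04 is the 30th percentile of the means of all probe sets other than controls over the 12 arrays. Of the probe sets naming 1 gene, 26213 passed it. limma 3.58.1 in R 4.3.3 fitted 1 mean per genotype over the 12 arrays with moderated spread, 2-sided, once over all probe sets past the minimum and once over the 14203 genes by their brightest probe set. Adjusted p-values are Benjamini-Hochberg over each fit, with calls under 0.05. Tables were made with Python 3.11.15, pandas 2.3.3 and numpy 2.4.6. The fit was tested on simulated data.

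Named genes are Stat5a and Stat5b; the 12 rises and the 12 falls with the largest smallest probe set difference among genes with every probe set called and no overlap between groups; up to 6 of each sign for the difference of differences; up to 4 of each list; and the 4 with the widest opposite calls. Members and lists were chosen with earlier results of these data known. Alternatives changed the minimum, the scaling, the probe set rule, the moderation of the spread, array weights, the arrays fitted, the call and a 3′ minus 5′ covariate, and left out each array in turn; 1 more, leaving out 2 arrays together, was chosen after seeing the data. Promoters came from RefSeq on GRCm38.p6.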

Additional observations from a re-analysis of the deposited data

Results flagged for a closer look

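For 12 genes named in the report, the difference between single-Stat5a and Stat5ab+/null itself differed from the difference between single-Stat5b and Stat5a-/-, by the limma test of the difference of differences on each gene's brightest probe set, with p adjusted over 14203 genes and 3 arrays per genotype. It was positive for Phkg1 at 4.21 (adjusted p = 0.00467), Ang at 3.09 (adjusted p = 6.53e-05), Gm14057 at 2.12 (adjusted p = 0.000366), Stat5a at 1.62 (adjusted p = 0.0119) and Rps6 at 1.35 (adjusted p = 0.0194). It was negative for H2-Ea at -7.76 (adjusted p = 1.21e-06), Ifi44l at -3.93 (adjusted p = 0.000212), Pianp at -3.39 (adjusted p = 0.00011), Cap1 at -3.23 (adjusted p = 0.000693), Cxcl15 at -2.82 (adjusted p = 0.00673), Defb1 at -2.07 (adjusted p = 0.0347) and Slc12a2 at -1.39 (adjusted p = 0.0441). H2-Ea, Ifi44l, Phkg1, Gm14057, Rps6, Cxcl15 and Defb1 were called on every probe set, and Stat5a, Ang, Cap1, Pianp and Slc12a2 on some of theirs.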

How the results depend on the processing

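No paired analysis was possible because the labels carry no replicate numbers that the groups share. With each of the 12 arrays left out in turn, genes with every probe set called the same way numbered 884 to 1275, members called on their brightest probe set 3743 to 4614, members with 1 sign 2744 to 2801, and genes with a called difference of differences 64 (without Stat5a-/- replicate 2) to 199 (without Stat5abnull/Stat5a- replicate 2) over all genes and 5 to 9 on every probe set. The Stat5a differences ranged from 2.17 to 2.49 on 1421469_a_at and from -3.31 to -2.90 on 1450259_a_at, and those of Stat5b from -2.46 to -2.28 on 1422102_a_at and from -0.61 to -0.38 on 1422103_a_at, where 8 of the 12 fits lost the call.

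Genes with every probe set called the same way numbered 707 at an adjusted p under 0.01, 509 with a 2-fold minimum and 595 with the 3′ minus 5′ signal as a covariate, 538 of them among the 1075; members called on their brightest probe set numbered 2646 with the 2-fold minimum. The difference of differences was called for 68 genes without moderation of the spread, 1582 with array weights, 59 at an adjusted p under 0.01 and 61 without Stat5ab+/null replicate 2 and Stat5abnull/Stat5b- replicate 2 together, an alternative added after seeing the data. It was called on every probe set of 3 genes with the stricter minimum on signal, 4 without moderation and 23 with array weights. Stat5b on 1422103_a_at kept its value of -0.47 but not its call at an adjusted p under 0.01, and was -0.31 (adjusted p = 0.415) with the covariate. Differences that were not called changed sign with the covariate for Aldh2 on 1448143_at (0.43), Spsb1 on 1420150_at (-0.063) and Rab2a on 1418622_at (0.010), and for that Aldh2 probe set with arrays left out in turn (-0.22 without Stat5ab+/null replicate 2 to 0.061 without Stat5ab+/null replicate 3). The cause was not tested, and the covariate did not overlap between the 2 groups. Of the 24 large rises and falls, 20 kept direction and call wherever a probe set had a value; some dim probe sets had none under the stricter minimum on signal. Trdn, Ryr1, Cd22 and Ptpn6 lost some calls. The simulated data held no difference under 2-fold, so how often such differences are recovered with 3 arrays a group was not measured.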
